A study of Lotus japonicus with 14 samples.

Results

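In the legume Lotus japonicus, 72 of 38476 gene models were nearly silent in uninoculated roots and already abundant in the nodule primordia cut from roots 5 days after inoculation (dai) with rhizobia. They were chosen by level alone. Each had under 1 CPM (library-size normalized counts, TMM-scaled over all libraries) in both root libraries and a mean of at least 30 CPM over the 4 libraries of 5 dai. Below, they are called the early nodule gene models, after their level at 5 dai and not after their peak day or any function. The root values and the mean at 5 dai chose them, so the step from root to 5 dai is given as a description and supports nothing.

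The 14 libraries came from wild type plants of the accession MG20 (Miyakojima) and from the mutant apn1, labelled Fix-, grown in vermiculite with nitrogen-free medium. Each genotype gave 1 uninoculated root library and nodule libraries formed with Mesorhizobium loti MAFF303099 or TONO, both at 5, 7 and 10 dai, so every condition had a single library. The allele of apn1, the number of plants behind each library and the age of the uninoculated roots were not given in the sources used here. Primordia and nodules were cut from the roots, and rRNA of plant and bacteria was removed from their RNA. The root libraries differ from the others in organ and inoculation together, so root and nodule values are set side by side without a cause. The libraries held 33981124 to 58395305 counts, and those of 10 dai were the shallowest of all, so that day and depth moved together. No identifier in the files is paired with a gene name, and 0 of 38476 matched the RefSeq gene table of this species. The labelled tissues could therefore not be checked against marker genes, and no function is given for any gene model.

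A legume nodule starts as a primordium of dividing root cortical cells that rhizobia enter through infection threads. Some of its genes, classically called nodulins, are active in the nodule and almost nowhere else. Early nodulins accompany infection and organ formation, and late nodulins serve the infected cells once bacteroids are in place, among them the leghemoglobins that buffer oxygen and enzymes that assimilate ammonium. The label Fix- stands for nodules that do not fix nitrogen. Read counts do not measure fixation, so whether the apn1 nodules of either strain fixed nitrogen was not tested. In whole-nodule RNA, fewer cells of a type and less RNA per cell cannot be told apart.

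The early nodule gene models did not share 1 course after 5 dai. With MAFF303099, 22 had their highest CPM at 5 dai in both genotypes, 26 at 7 dai and 18 at 10 dai, and 6 peaked on different days in the 2 genotypes. This grouping was made after the values were seen. The lowest value of any member at 5 dai was 12.9 CPM, in wild type with TONO. At 10 dai the members of that combination ranged from 0.148 to 19417 CPM. Over the 12 nodule libraries, 71 of 72 members varied at least 2-fold, and 24 varied at least 32-fold.

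**Figure D1:**
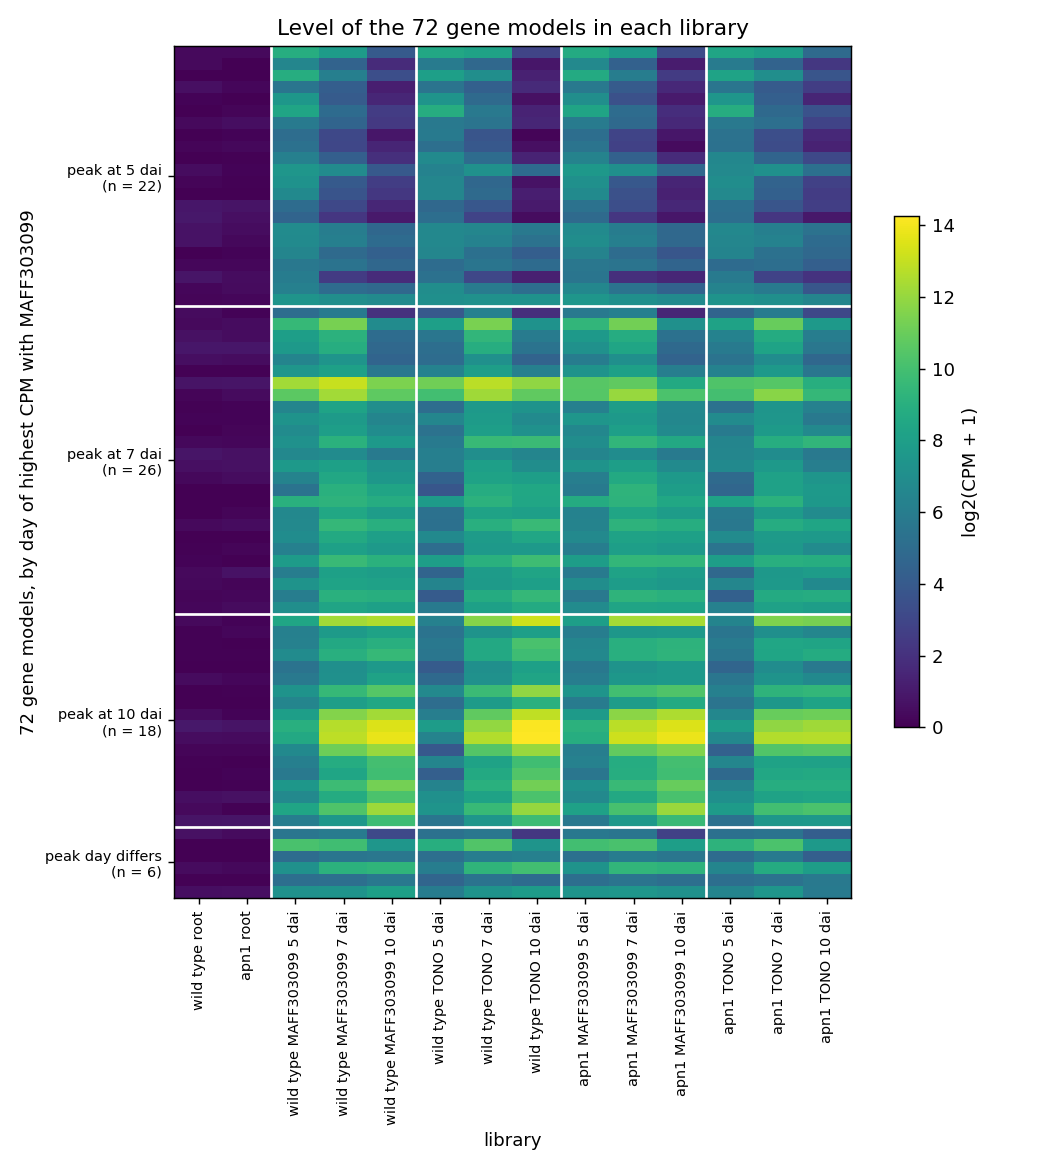
Level of each of the 72 gene models (rows) in each of the 14 libraries (columns) as log2(CPM + 1), grouped by the day of highest CPM with MAFF303099. All 72 are dark in both roots, where the highest value is 0.912 CPM. The 22 models of the top group fade towards 10 dai, and the 18 of the group that peaks at 10 dai brighten, less so in the last column, apn1 with TONO at 10 dai.

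Together the members took 0.00191% of counts in wild type roots and 0.00175% in those of apn1. Wild type nodules with MAFF303099 gave them 2.02%, 5.87% and 6.07% at 5, 7 and 10 dai, and in those with TONO it was 1.02%, 4.53% and 6.94%. For apn1 the shares were 1.48%, 5.21% and 5.55% with MAFF303099, and 1.05%, 3.76% and 2.91% with TONO. Their Wilson 95% intervals extended by no more than 0.00835 percentage points each way, which covers counting error only. The 10 dai nodule of apn1 with TONO was thus the only 10 dai library with a smaller share than its 7 dai partner. In all, 10327 gene models were under 1 CPM in both roots, and the 72 members held 66.5% to 79.1% of the counts that this whole set had in a nodule library. At 5 dai a large share follows from the rule, which took the models with the highest means of that day. Of the whole set, members included, 1097 models had a mean of at least 1 CPM at 5 dai and 132 a mean of 10 CPM or more.

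**Figure D2:**
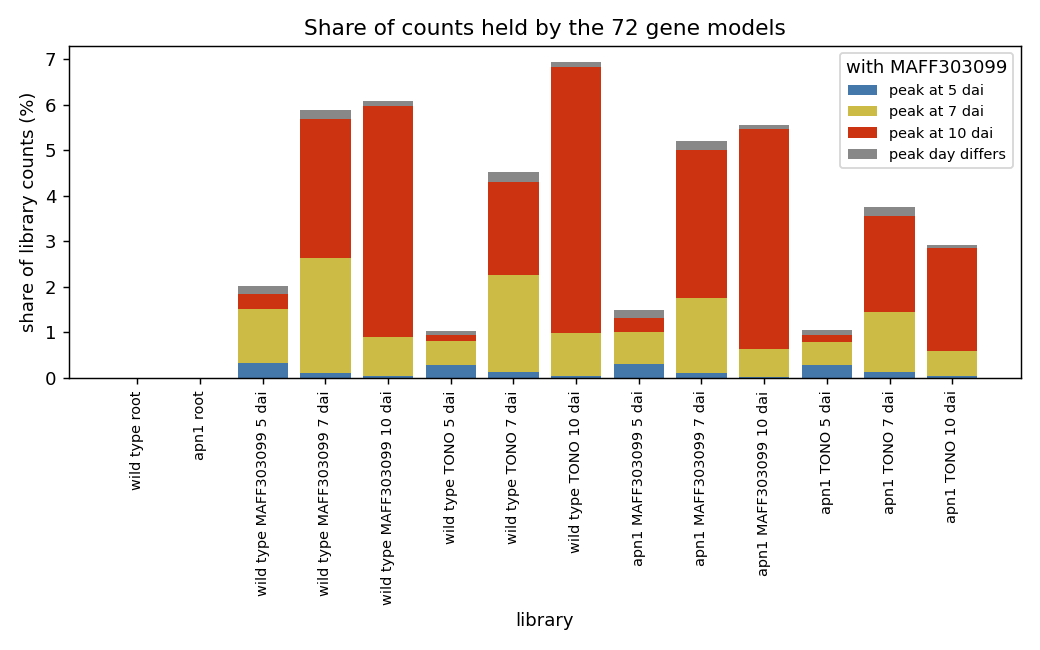
Share of each library's counts held by the 72 gene models, in percent, as bars stacked by the day of highest CPM with MAFF303099. The models that peak at 10 dai make up most of each bar at 10 dai, with 5.84% of counts in wild type with TONO and 2.26% in apn1 with TONO.

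At the 5 dai threshold, LjSGA_023755.1 was just inside with a mean of 30.2 CPM and LjSGA_031242.1 just outside with 27.9 CPM. The first was also nearest to the limit in the wild type root, at 0.912 CPM. Just outside there was chr1.CM0105.310.r2.a, with 1.005 CPM in that root and a mean of 305 CPM at 5 dai. In the apn1 root, chr3.CM1570.70.r2.a was just inside at 0.848 CPM, and LjSGA_023854.1 was left out at 1.004 CPM. In 3 members both roots had 0 counts.

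A pair of gene models held the highest read counts among the members at 5 dai. Gene lengths are not in the files, so CPM values compare libraries for 1 model and not abundances between models. The first, chr3.CM0996.1250.r2.d, had 0.689 CPM in the root of wild type and 0.727 in that of apn1. In wild type it had 4861, 8371 and 2742 CPM at 5, 7 and 10 dai with MAFF303099 and 2314, 7023 and 3815 CPM with TONO. In apn1 it had 1481, 1717 and 400.0 CPM with MAFF303099 and 1278, 1414 and 487 CPM with TONO. On each day, both apn1 libraries lay below both wild type libraries. The second, chr1.CM0125.390.r2.m, had 1584, 4949.8 and 1667 CPM in wild type with MAFF303099 and 958, 4741 and 1747 CPM with TONO. In apn1 it had 1452, 4187 and 1196 CPM, and with TONO 1028, 3354 and 714 CPM. It peaked at 7 dai in all 4 combinations of genotype and strain.

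The contrast of 10 against 7 dai compares no library that chose the members and was tested over all 4 combinations. The libraries of 5 dai, which did choose them, still entered the fit through the combination terms and the error. Of the 72 members, 37 fell and 8 rose from 7 to 10 dai (edgeR quasi-likelihood test, adjusted p under 0.05 over all 32549 gene models tested), and 27 did not pass. Over all gene models tested, 29.2% passed, 15.8% falling and 13.4% rising. The share of members that fell, 51.4%, was thus above the background and the share that rose, 11.1%, was close to it. The background reaches down to a mean scaled count of 10, so shares of all gene models, here and below, are not matched to the members for level. The median fitted log2 fold change of the members was −0.80, against 0.01 over all gene models tested. Of the 45 calls, 44 had the same direction in 4 of 4 combinations, a count of signs whatever their size. In apn1 with TONO the largest log2 rise of any member was 0.78. There chr3.LjT34H24.140.r2.d, called as rising and picked after its values were seen, changed by only 0.004. Its log2 changes were 1.49 in wild type with MAFF303099, 2.15 in wild type with TONO and 1.24 in apn1 with MAFF303099. Fold changes of at least 2 were fitted for 31 of the 37 falling and 7 of the 8 rising members. With no replicate library of any condition, the test takes its error from what additive terms for combination and day leave over, and assumes that days act alike in all combinations. The number of rising members rested on single libraries: it was 2 without wild type with TONO at 7 dai, 4 without either MAFF303099 library of 7 dai, 5 without wild type with TONO or apn1 with MAFF303099 at 10 dai, and 12 without apn1 with TONO at 10 dai. The number of falling members stayed between 34 and 40 with any single nodule library left out. Without the libraries of 5 dai, 46 members passed, 7 rising and 39 falling, against 20.4% of all gene models.

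The 2 strongest rises were those of chr4.CM0244.350.r2.d and chr1.LjT37A17.60.r2.m. The first went from 188 CPM at 7 dai to 914 at 10 dai in wild type with MAFF303099, and from 175 to 879.6 CPM with TONO. In apn1 it went from 193 to 792 CPM with MAFF303099 and from 184 to 192 CPM with TONO. The other 3 combinations lay close together at 10 dai and apn1 with TONO lay far below them. The test fitted it at 1.75 on the log2 scale (SE 0.34, edgeR adjusted p = 0.00458). The other model, chr1.LjT37A17.60.r2.m, had 1285, 782, 1086 and 980.4 CPM at 7 dai in wild type with MAFF303099, wild type with TONO, apn1 with MAFF303099 and apn1 with TONO. At 10 dai it had 4608, 4109, 4396 and 1200.1 CPM in the same order. Its rise was fitted at 1.72 (log2, SE 0.32, edgeR adjusted p = 0.00383).

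The 2 strongest falls were those of chr2.CM0608.790.r2.d and chr3.CM0005.520.r2.m. The former had 55.0, 74.4, 71.1 and 61.3 CPM at 7 dai, in the order of combinations just given, and 3.05, 2.80, 1.86 and 7.50 CPM at 10 dai. The fitted change was −4.17 (log2, SE 0.48, edgeR adjusted p = 0.000419). The latter had 223, 291, 216 and 245 CPM at 7 dai and 15.7, 6.57, 8.77 and 29.1 CPM at 10 dai. Its fitted change was −4.16 (log2, SE 0.40, edgeR adjusted p = 0.000226). For both, the values of 7 and 10 dai did not overlap, and the highest value at 10 dai was that of apn1 with TONO.

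The least variable members ranged over about 2-fold. The smallest spread over the 12 nodule libraries was that of chr2.LjT15I01.230.r2.d, which ran from 88.1 to 175 CPM, an SD of 0.27 on the log2 scale. Next was chr1.CM0295.480.r2.d, which ran from 24.4 to 54.0 CPM, an SD of 0.31. In the roots these models had 0.149 and 0.173 CPM, and 0.0744 and 0.0519 CPM. Their fitted log2 differences between 10 and 7 dai were −0.24 (SE 0.15, edgeR adjusted p = 0.273) and 0.03 (SE 0.16, edgeR adjusted p = 0.896).

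**Figure D3:**
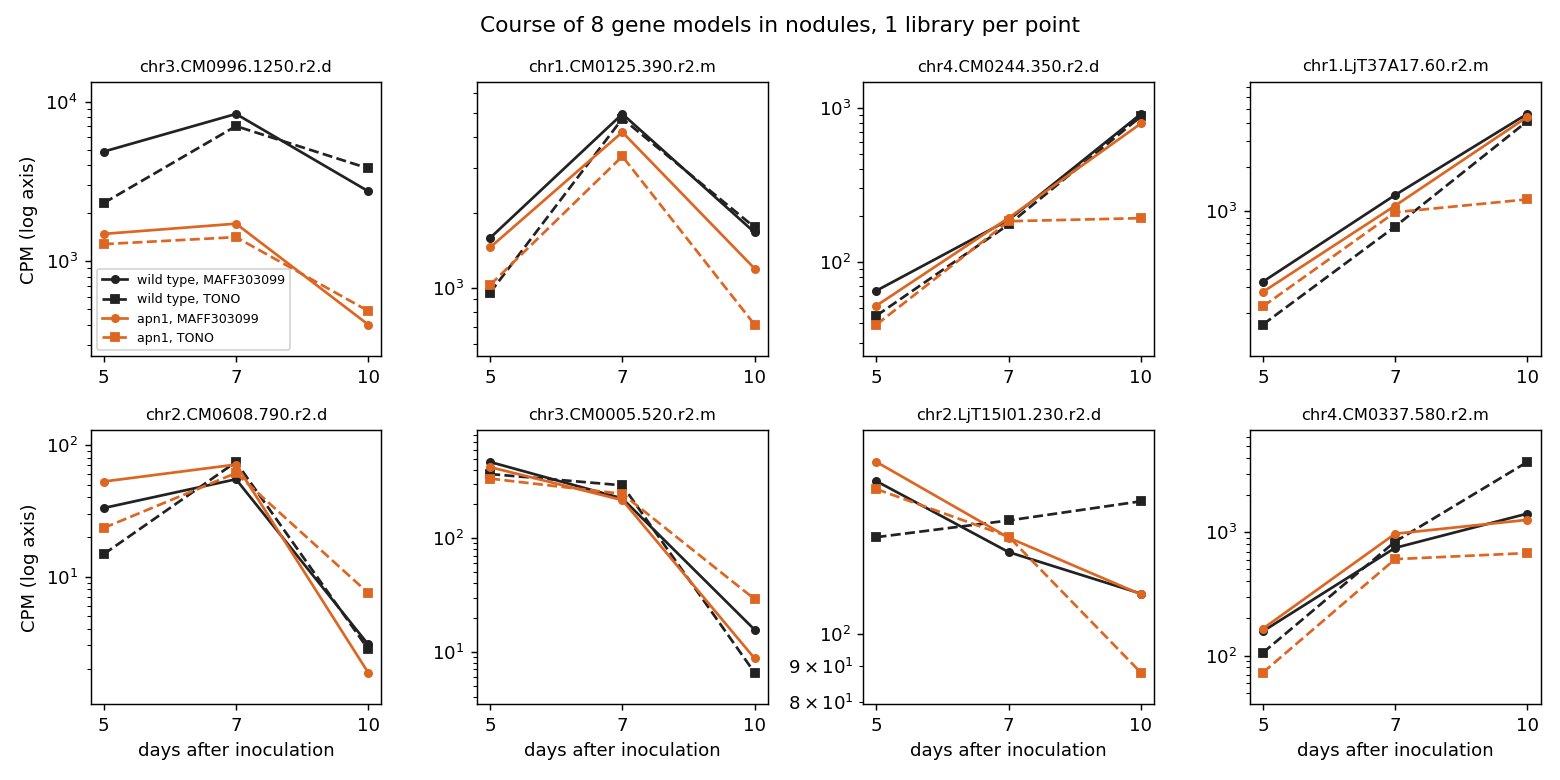
CPM on a log axis against days after inoculation for 8 of the gene models, with 1 library per point. Black is wild type, orange apn1, solid lines with circles MAFF303099 and dashed lines with squares TONO; the scale differs between panels. In the panels of chr4.CM0244.350.r2.d and chr1.LjT37A17.60.r2.m the dashed orange line is flatter from 7 to 10 dai than the rest, at 184 and 192 CPM in the former, while the other 3 lines climb.

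The 22 members that peaked at 5 dai with MAFF303099 had a median of 89.6, 22.4 and 4.50 CPM at 5, 7 and 10 dai in wild type with that strain. In TONO nodules, which did not enter this grouping, 19 of the 22 also peaked at 5 dai in wild type and 20 in apn1. The TONO libraries of 5 dai did help to choose the members, so the rule partly fixes these counts. Of the 22, 21 fell from 7 to 10 dai, a count that shares the MAFF303099 libraries with the grouping. LjSGA_015164.1, chosen after its values were seen as a model whose 7 to 10 dai fall had the smallest adjusted p, had 184, 16.3 and 1.85 CPM in wild type with MAFF303099. With TONO it had 165, 28.9 and 0.553 CPM (log2 fold change from 7 to 10 dai −3.79, SE 0.34, edgeR adjusted p = 0.000191). At 10 dai, 2 members were back under 1 CPM in wild type with MAFF303099, 6 in wild type with TONO, 3 in apn1 with MAFF303099 and 1 in apn1 with TONO.

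The 26 members that peaked at 7 dai had a median of 124.8, 366 and 210.0 CPM in wild type with MAFF303099. In TONO nodules 17 of them peaked at 7 dai in wild type and 9 at 10 dai, against 23 and 3 in apn1. Among them 14 fell from 7 to 10 dai and 12 did not pass the test, counts that the grouping on a peak at 7 dai with MAFF303099 partly fixes. Members on 1 contig could follow different courses. On chr3.CM0005, model 520 was highest at 5 dai with MAFF303099, as given above, whereas model 600 had 748, 2563 and 116 CPM in wild type and 652, 2364 and 141 CPM in apn1 with that strain.

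The 18 members that peaked at 10 dai had a median of 106, 474 and 1104 CPM in wild type with MAFF303099. In TONO nodules all 18 peaked at 10 dai in wild type, and 12 did so in apn1, where the other 6 peaked at 7 dai. All 8 members that rose from 7 to 10 dai belong to this group, which the grouping on MAFF303099 libraries partly fixes. Of the 18, 5 lie on chromosome 5 by their identifiers, a group formed after its values were seen. These were chr5.CM0062.80.r2.m, chr5.CM0062.100.r2.m, chr5.CM0089.1180.r2.m, chr5.CM0089.1200.r2.m and chr5.CM0034.610.r2.m. They held 0.179%, 2.45% and 3.70% of all counts at 5, 7 and 10 dai in wild type with MAFF303099, and 0.0498%, 1.59% and 4.48% with TONO. In apn1 they held 0.171%, 2.64% and 3.60% with MAFF303099, and 0.0597%, 1.66% and 1.77% with TONO. At 10 dai they made up 60.9% to 64.8% of the counts of all 72 members in each combination. The highest value of any member, 19417 CPM, was that of chr5.CM0062.80.r2.m in wild type with TONO at 10 dai. Its values in apn1 with TONO were 98.0, 6275 and 6529 CPM at 5, 7 and 10 dai. From 7 to 10 dai, 0 members were at least 2-fold higher in apn1 with TONO and 36 lower, against 5.24% and 7.8% of all gene models. In wild type with TONO 17 were higher and 27 lower, against 10.7% and 15.3%. With MAFF303099 the numbers were 7 and 33 in wild type, against 8.03% and 13.1%, and 5 and 34 in apn1, against 7.06% and 13.4%. The apn1 nodules with TONO were thus the only combination with no member 2-fold higher. For chr5.CM0062.80.r2.m the log2 fold change from 7 to 10 dai over the 4 combinations did not pass (0.85, SE 0.44, edgeR adjusted p = 0.172), and of the 5 models only chr5.CM0089.1200.r2.m did (1.09, SE 0.33, edgeR adjusted p = 0.0323).

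Whether the members differ between apn1 and wild type was tested within each strain over the 3 days, the libraries of 5 dai that chose the members included. With edgeR no member passed with either strain. Of all gene models, 0.0614% passed with TONO (0.0369% higher and 0.0246% lower in apn1) and 0.0553% with MAFF303099 (0.0399% higher and 0.0154% lower). At an unadjusted p under 0.05 there were 7 members with TONO and 1 with MAFF303099, against 9.79% and 7.46% of all gene models. Neither count stood above the background in this fit. With TONO that count ran from 1, without apn1 with TONO at 10 dai, to 31, without wild type with TONO at 5 dai. Without all libraries of 5 dai it was 17 with TONO and 1 with MAFF303099, and no share over all gene models is set beside these. The members' median log2 fold change with TONO was then −0.43, in place of −0.24. With limma-voom 0 members passed with either strain, against 0.0584% of all gene models with TONO and 0.0553% with MAFF303099. DESeq2 called 1 member with each strain, against 0.565% and 0.716% of all gene models. That 1 was chr3.CM0996.1250.r2.d, the model described above. Its log2 fold change between apn1 and wild type was −2.17 with TONO (SE 0.40, edgeR adjusted p = 0.270) and −2.20 with MAFF303099 (SE 0.40, edgeR adjusted p = 0.145). A contrast over the 2 strains together, chosen once values were known, put it at −2.19 (SE 0.29, edgeR adjusted p = 0.0240), lower in apn1 in 6 of 6 pairs of libraries. It was the only member called there, against 0.083% of all gene models, 0.0215% being lower and 0.0614% higher. The model missed the threshold when any 1 of 8 single libraries was left out, with adjusted p-values up to 0.148. These were wild type with MAFF303099 at 5, 7 and 10 dai, wild type with TONO at 7 dai, and apn1 with MAFF303099 or TONO at 7 and 10 dai. Its log2 fold change stayed between −2.59 and −1.93 in all 18 alternatives. Effects of the apn1 allele and of any other difference between the lines cannot be told apart.

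Pair by pair, few members differed at least 2-fold between genotypes in 5 of the 6 pairs. With MAFF303099, 1, 1 and 6 members were at least 2-fold lower in apn1 at 5, 7 and 10 dai, against 1.98%, 2.09% and 5.56% of all gene models. No member was 2-fold higher there, against 2.02%, 2.56% and 5.5% of all gene models. With TONO, 0 members were 2-fold lower at 5 dai and 1 at 7 dai, against 2.1% and 2.17%, and 0 were higher, against 3.13% and 4%. At 10 dai with TONO, 28 members were at least 2-fold lower and 17 at least 2-fold higher in apn1. In that pair, 8.51% of all gene models were at least 2-fold lower and 12% higher, against 38.9% and 23.6% of the members. This pair sets 1 library against 1 and has no replicate check. With CPM by library total in place of TMM the median over all gene models in this pair moved to 0.42, and the members' median was −0.35 in place of −0.75. It lay 0.77 below the median of all gene models under that scaling and 0.78 below under TMM.

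The members split by their course. All 18 that peaked at 10 dai with MAFF303099 were lower in apn1 with TONO at 10 dai, 17 of them at least 2-fold, with a median log2 difference of −1.77. Of the 22 that peaked at 5 dai, 17 were higher, 15 of them at least 2-fold, with a median of 1.60. Their level was low by then in both libraries, with a median of 1.66 CPM in wild type and 6.93 CPM in apn1. At 5 dai with TONO these medians were 90.9 and 89.5 CPM. Of the 26 that peaked at 7 dai, 21 were lower, 7 of them at least 2-fold, with a median of −0.76. With MAFF303099 at 10 dai the medians of the 3 groups between apn1 and wild type were −0.08, −0.33 and −0.02, in the order of groups just given. At 7 dai with TONO they were −0.07, −0.31 and −0.25. Across the 72 members the mean change from 7 to 10 dai with MAFF303099 and the genotype difference with TONO at 10 dai were inversely related, with Pearson r of −0.776 and Spearman rho of −0.807. The 2 measures share no library, and gene models are not independent replicates. Neither the relation nor the counts by group are set beside all gene models, so whether they are particular to the members was not tested.

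**Figure D4:**
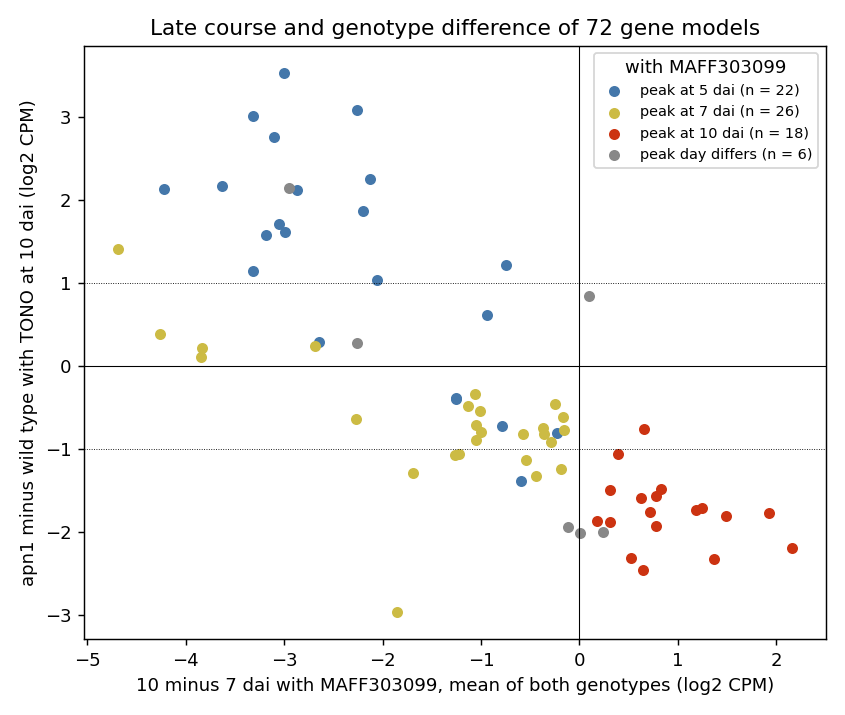
Each point is 1 of the 72 gene models. The x axis is the difference of log2 CPM between 10 and 7 dai with MAFF303099, as the mean of both genotypes, and the y axis is the difference between apn1 and wild type with TONO at 10 dai; dotted lines mark 2-fold. Of the 21 models to the right of 0, 20 lie below 0 and 19 below the lower dotted line. Of the 23 models at −2 or less on the x axis, 22 lie above 0 and 16 above the upper dotted line. Models that peak at 5 dai had low medians in the libraries of the y axis, 1.66 CPM in wild type and 6.93 CPM in apn1.

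The widest differences in this pair, higher in apn1, were those of LjSGA_111594.1 and LjSGA_037651.1. LjSGA_111594.1 had 4 counts in wild type and 73 in apn1 (0.148 and 2.14 CPM). LjSGA_037651.1 had 17 and 193 counts (0.627 and 5.66 CPM). Both had been at 40.8 CPM or more with TONO at 5 dai, so the signal was nearly gone in either library. With MAFF303099 at 10 dai LjSGA_111594.1 had 0.821 CPM in wild type and 0.852 CPM in apn1. LjSGA_037651.1 had 5.07 and 1.80 CPM there. For both, wild type with TONO was the lowest library of that day and apn1 with TONO the highest. In the other direction, chr3.CM0996.1250.r2.d had 487 CPM against 3815, and chr4.CM0337.580.r2.m had 679.6 CPM against 3735. The latter had 1421 CPM in wild type and 1266 CPM in apn1 with MAFF303099 at 10 dai, so its value in wild type with TONO stood above the other 3 libraries of that day.

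Strains were compared within each genotype over the 3 days, so that the libraries of 5 dai, which chose the members, enter these values. In wild type no member passed with edgeR, limma-voom or DESeq2, against 0.261%, 0.464% and 4.26% of all gene models. The edgeR share was made up of 0.203% higher and 0.0584% lower with TONO. At an unadjusted p under 0.05 there were 3 members with edgeR, against 15.5% of all gene models, and 26 without wild type with TONO at 10 dai. In apn1 none passed with edgeR, limma-voom or DESeq2, against 0%, 0% and 0.154% of all gene models. There 18 members had an unadjusted p under 0.05 with edgeR, 16 of them lower with TONO, against 5.38% of all gene models. That number rested on single libraries and ran from 2, without apn1 with TONO at 10 dai, to 30, without wild type with TONO at 10 dai. The median fitted log2 difference of TONO minus MAFF303099 was −0.22 in wild type and −0.40 in apn1, against −0.02 and 0.02 over all gene models. Without the libraries of 5 dai the members' medians were 0.10 and −0.34, so the sign in wild type rested on the libraries that chose the members. In wild type it was also positive, at 0.06, without the TONO library of 5 dai alone, and −0.47 without that of 10 dai. The genotype by strain interaction likewise gave no member with edgeR, limma-voom or DESeq2, against 0%, 0.0154% and 0.59% of all gene models. At an unadjusted p under 0.05 there was 1 member with edgeR, against 8.28% of all gene models, and 12 without wild type with TONO at 5 dai.

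Day by day, the strains were set side by side in each genotype. In wild type, 34 of 72 members were at least 2-fold lower with TONO at 5 dai and 0 at least 2-fold higher, against 5.79% and 3.61% of all gene models. In apn1, 16 were lower and 0 higher, against 2.83% and 2.11%. At 7 dai the members 2-fold lower with TONO numbered 0 in wild type and 1 in apn1, against 4.8% and 2.39% of all gene models. Those 2-fold higher numbered 1 and 2, against 3.14% and 2.32%. The mean over the libraries of 5 dai chose the members, and each of these is 1 library against 1, so no test is given. The grouping by peak day used the MAFF303099 libraries of 5 dai that enter the medians below. The 22 members that peaked at 5 dai had a median log2 difference of −0.18 in wild type at 5 dai. It was −1.35 for the 26 that peaked at 7 dai and −1.15 for the 18 that peaked at 10 dai. In apn1 the medians were −0.13, −0.61 and −0.75. The widest gap in wild type was that of chr5.CM0062.100.r2.m, with 109 CPM with MAFF303099 and 14.3 CPM with TONO, followed by chr3.CM1570.70.r2.a, with 197 and 34.3 CPM. At 7 dai these 2 models had 2199.8 against 1388 CPM and 462 against 468 CPM. Conversely, LjSGA_056148.1 had 73.0 CPM with MAFF303099 and 124 with TONO, and LjSGA_111594.1 had 32.9 and 54.5 CPM.

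**Figure D5:**
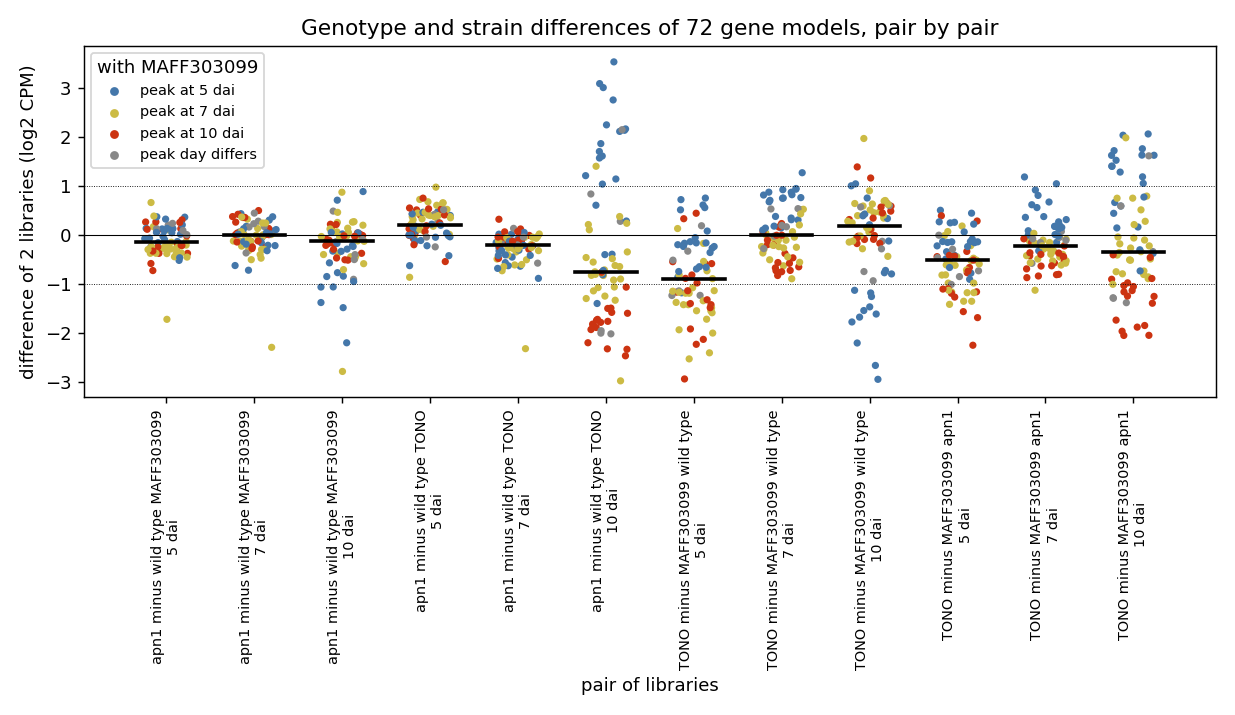
Differences of log2 CPM between 2 libraries for each of the 72 gene models (points, coloured by day of highest CPM with MAFF303099), with the median as a black bar and 2-fold as dotted lines. The first 6 columns are apn1 minus wild type and the last 6 TONO minus MAFF303099. The widest genotype column is that of TONO at 10 dai, with values from −2.97 to 3.54, and the strain medians at 5 dai are −0.88 in wild type and −0.51 in apn1.

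At 10 dai the medians of the strain difference differed by course group and genotype. The grouping used the MAFF303099 libraries of 10 dai that enter these differences, so it partly fixes the medians. In wild type the members that peaked at 5 dai with MAFF303099 were lower with TONO, with a median log2 difference of −0.96, and those that peaked at 10 dai had a median of 0.34. In apn1 the medians were 1.24 and −1.20. The members that peaked at 5 dai were at low levels by 10 dai, with median CPM from 1.66 to 6.93 over the combinations. In wild type 5 members were at least 2-fold higher and 11 lower with TONO, against 5.24% and 7.08% of all gene models. In apn1 15 were higher and 16 lower, against 8.44% and 5.85%. Whether the difference between the genotypes exceeds the error of single libraries cannot be tested here.

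By identifier, 54 members are placed on the chromosomes numbered 1 to 6, with 9, 11, 9, 10, 10 and 5 members. Of the others, 16 carry LjSGA identifiers and 2 another prefix. LjSGA models were 22.2% of the members, 40% of the gene models tested and 49.3% of those under 1 CPM in both roots. Among the LjSGA members 12 of 16 peaked at 5 dai with MAFF303099, compared with 0 of 10 members on chromosome 5. Of those 10, 5 peaked at 7 dai and 5 at 10 dai. These identifier groups were picked after the values were seen. Of all members, 22 peaked at 5 dai, and chromosomes 1 to 6 held 1, 3, 4, 2, 0 and 0 of them. No share for all gene models with such identifiers is set beside these counts, so whether peak day differs by identifier was not tested. The members fell on 61 contigs, and 11 contigs held 2 members each. In 4 of these pairs no other gene model lies between the 2 by number. Reads of neighbouring or near-identical models may be shared, since the handling of strand and of multiply mapped reads is not given in the sources used here.

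Neighbouring members did not always move alike. On the contig chr2.LjT34P04, model 70 had 115, 257 and 123 CPM in wild type with MAFF303099, and the adjoining model 80 had 53.3, 336 and 955 CPM. In the test of 10 against 7 dai model 70 fell (−0.99 on the log2 scale, SE 0.25, edgeR adjusted p = 0.0160) and model 80 rose (1.12, SE 0.34, edgeR adjusted p = 0.0316). On chr1.CM0192 both members, 270 and 400, rose, with log2 fold changes of 1.37 (SE 0.32, edgeR adjusted p = 0.0115) and 1.08 (SE 0.32, edgeR adjusted p = 0.0291). In 4 of the 11 pairs both members peaked on the same day with MAFF303099. No share for members on different contigs is set beside this count, so it says nothing about neighbours. One pair with the same peak day, LjSGA_037651.1 and LjSGA_037651.1.1, ran close together, with 126, 22.5 and 5.66 CPM and 105, 19.8 and 4.69 CPM in apn1 with TONO.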

How the data were processed

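The members and the groups within them were chosen with earlier results of these data known. The authors deposited 12 tables of whole-number read counts for 38476 gene models, each with 1 root and 1 nodule library. Beside them, per the file headers, stands a normalized signal made with iDEGES/DESeq, which in all 24 such columns is the count times 1 factor and was not used. Bowtie2 2.0.2 and DESeq stand in the submitters' processing notes. Genome build, annotation and counting tool were not given in the sources used here. Each root library had the same counts in every table that holds it and was used once.

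TMM CPM over the 14 libraries applied the rule. Gene models with a mean scaled count of at least 10 in the 12 nodule libraries were tested (32549, all 72 members among them) with edgeR 4.0.16 quasi-likelihood tests (R 4.3.3), with genotype-strain combination and day as additive terms, 6 residual degrees of freedom and Benjamini-Hochberg adjustment at 0.05 over all. The common biological coefficient of variation was 22.7%. The SE is the log2 fold change over the square root of F. Log2 CPM used a prior count of 2. Named gene models are the 2 most extreme per contrast and direction, the 2 highest at 5 dai, the 2 least variable and those nearest each threshold. The contigs with most members tie at 2 members, so those detailed, and models named for other reasons, were chosen after their values were seen. Alternatives were DESeq2 1.42.0, limma 3.58.1, other scalings, no filter, no 5 dai libraries and leaving out each library. Figures used Python 3.11.15 and matplotlib 3.10.9.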

Additional observations from a re-analysis of the deposited data

Results flagged for a closer look

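For chr1.CM0166.30.r2.m the change from 7 to 10 dai went opposite ways with the strains. With TONO its log2 CPM was higher at 10 dai in both genotypes, by a mean of 0.295, and with MAFF303099 lower in both, by a mean of −1.07, so that the strains were 1.36 apart. In wild type it had 537 and 212 CPM with MAFF303099 and 775 and 833 CPM with TONO, at 7 and 10 dai. For chr4.CM0227.660.r2.m the difference of apn1 minus wild type was positive on all 3 days with TONO, with a mean log2 difference of 1.07, and negative on all 3 days with MAFF303099, with a mean of −0.461, which is 1.54 apart. Most of it came from 10 dai, where the values with TONO were 1.51 CPM in wild type and 12.5 CPM in apn1. The first of these differences was not tested. The second is the genotype by strain interaction of the report, for which edgeR fitted 1.27 (log2, SE 0.79, adjusted p = 0.687).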

How the results depend on the processing

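No paired analysis was possible because each condition has 1 library and the labels carry no replicate numbers; day and combination enter the model as additive terms instead. In all 18 alternatives the number of members that changed from 7 to 10 dai stayed within 1.5 times of 45, and with each nodule library left out in turn it ran from 36 to 50. Without the libraries of 5 dai, which chose the members, it was 46, of which 44 were also called with them. The 4 models named for the largest changes kept direction and call in all 18. Between genotypes DESeq2 called 1 member with each strain in place of 0, leaving out single libraries gave 0 with TONO and 0 to 1 with MAFF303099, and averaged over strains 0 to 1. Between strains averaged over genotypes, a contrast chosen after the data were seen, DESeq2 called 3 in place of 0, against 2.85% of all gene models, namely chr3.LjT34H24.140.r2.d, chr5.CM0062.100.r2.m and chr5.CM0300.220.r2.m. With CPM by library total the median of the members was −0.35 for apn1 against wild type with TONO at 10 dai and −0.98 for 10 against 7 dai (−0.81 under TMM), and the median over all gene models moved with them, to 0.42 and −0.17. Other scalings and prior counts left 20 to 28 members 2-fold lower and 16 to 19 higher in that pair. The rule itself gave 55 to 100 members under other thresholds and scalings and 69 to 80 with 1 library left out. Counts are ample for most members, but values under 1 CPM at 10 dai rest on few counts, where a count of 0 allows up to 0.0883 CPM.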
